A study of Mus musculus with 2 samples.

Results

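The genes described here are 10 imprinted genes of the mouse: H19, Igf2, Cdkn1c, Meg3, Dlk1, Peg3, Mest, Grb10, Plagl1 and Ndn. They were chosen by gene name, as genes whose dosage depends on DNA methylation, and they are 10 of the 29608 gene names on the array, with 19 probes and 28 spots. RNA came from 661W, an immortalised mouse line derived from retinal tumours and used as a cone-like photoreceptor model. Cells were kept for 3 days in DMEM/F12 medium that lacked choline (the choline-deficient array) or contained it, at 8.98 g/L by the labels (the choline-sufficient array). That concentration looks high, its unit could not be checked, and no result here rests on it. Each condition was hybridised to 1 single-colour Agilent array, and the design text speaks of RNA pooled from 4 dishes without saying whether that is per condition. All cells were of this 1 immortalised line, in medium with serum and antibiotics. The labels name no genetic change that sets the conditions apart.

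Imprinted genes are expressed mainly from the maternal or the paternal chromosome, and the choice is kept by DNA methylation laid down in the germ cells at control regions. That methylation has to be copied at every cell division, with methyl groups that come from S-adenosylmethionine. Choline, once oxidised to betaine, is a dietary source of those methyl groups. Many imprinted genes act on growth: Igf2 encodes a growth factor, and several maternally expressed genes restrain its pathway. DNA methylation and allelic expression were not measured here, only total RNA of each gene.

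Of the 10 genes 6 were measured on both arrays, meaning that at least 1 probe was called well above its background by the scanner software and was not saturated. These were H19, Igf2, Cdkn1c, Dlk1, Plagl1 and Ndn. Meg3 was above background on the choline-sufficient array only, and Peg3, Mest and Grb10 on neither array. Of the 6 measured members H19 was the furthest apart, at 2.44-fold higher in the RNA without choline, and the other 5 measured members lay within 2-fold. Each condition had 1 array, so differences could not be checked in replicates, and p-values are not given. Each difference is the log2 level without choline minus that with choline, a level being the log2 signal minus that of the array's 75th percentile. The error after each ± is the software's estimate of the array measurement and leaves out variation between cultures. For a gene with several measured probes it is the mean of their errors and leaves out disagreement between the probes. In bulk RNA, fewer cells of a type and less RNA per cell cannot be told apart.

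**Figure D1:**
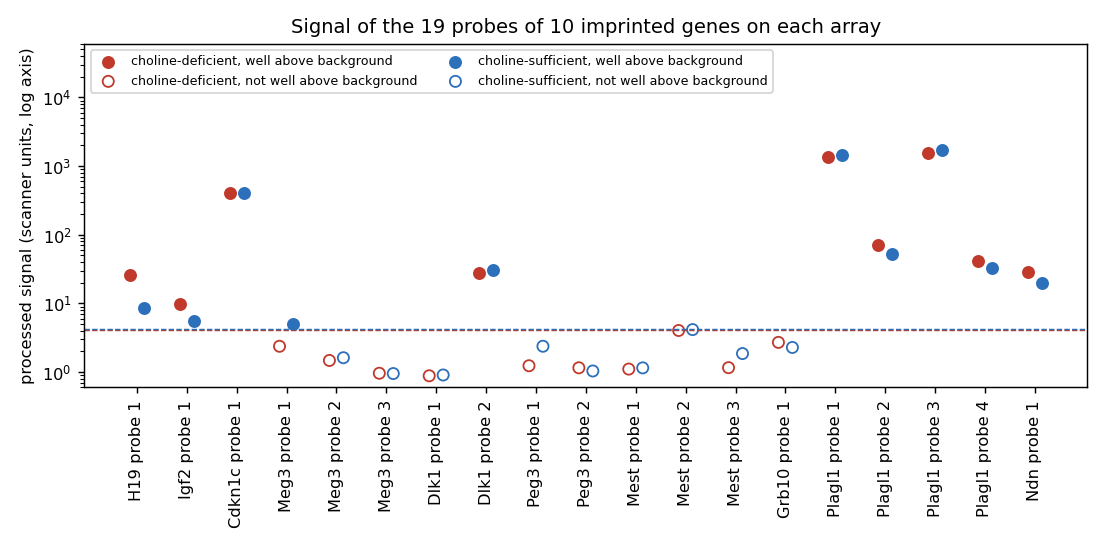
Processed signal in scanner units (log axis) of the 19 probes of the 10 genes on the choline-deficient (red) and choline-sufficient (blue) array, with filled points for probes well above background and open points for the others. The dashed lines mark the lowest signal of any probe well above background, 4.16 and 4.26, and 9 probes are filled on both arrays; heights of different probes are not comparable.

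Several sequences show what was read and what was not. Arrays read RNA through probes of 60 bases, and the results on the non-coding members rest on 4 of them; 3 are printed, from the array files, with positions on mouse build mm9. Among the member probes above background on both arrays, the H19 probe carried the largest difference, and of the 3 Meg3 probes only the first gave a signal above background, on 1 array.
H19 probe, NR_130973, chr7:149761492-149761551: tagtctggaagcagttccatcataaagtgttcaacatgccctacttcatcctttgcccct
Meg3 probe 1, NR_027652, chr12:110809678-110809737: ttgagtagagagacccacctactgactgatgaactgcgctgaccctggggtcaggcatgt
Meg3 probe 2, NR_003633, chr12:110799558-110799617: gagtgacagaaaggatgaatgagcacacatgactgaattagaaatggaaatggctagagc

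H19 is also the precursor of a microRNA pair, miR-675, whose hairpin lies inside the H19 gene. The mature forms were not read by the probe above. They are given from RefSeq (GRCm38.p6) with the seed, bases 2 to 8, in capitals.
mmu-miR-675-5p, chr7:142577112-142577133, minus strand: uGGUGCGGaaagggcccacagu
mmu-miR-675-3p, chr7:142577078-142577099, minus strand: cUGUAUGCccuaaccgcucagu

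For Plagl1, Mest and Peg3, the methylated control region of the imprint is known to overlap the promoter, so their upstream windows are shown for the methylatable letters they hold. RefSeq windows were found for 8 of the 10 genes, with 15 starts in all. The 250 bases before each start were searched on the gene's strand for CG, which reads the same on the other strand, and CG is in capitals.
Plagl1, GRCm38.p6, chr10:13090582-13090831, plus strand: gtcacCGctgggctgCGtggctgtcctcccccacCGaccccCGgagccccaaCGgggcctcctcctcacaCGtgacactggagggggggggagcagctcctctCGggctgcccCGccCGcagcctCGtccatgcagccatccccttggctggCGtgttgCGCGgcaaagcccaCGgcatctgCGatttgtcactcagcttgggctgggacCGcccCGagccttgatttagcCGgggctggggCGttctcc
Mest, GRCm38.p6, chr6:30737800-30738049, plus strand: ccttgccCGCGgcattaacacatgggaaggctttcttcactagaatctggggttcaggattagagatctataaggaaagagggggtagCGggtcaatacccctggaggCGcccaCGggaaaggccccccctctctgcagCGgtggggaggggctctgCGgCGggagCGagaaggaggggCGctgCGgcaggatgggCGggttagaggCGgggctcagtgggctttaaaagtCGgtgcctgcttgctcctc
Peg3, GRCm38.p6, chr7:6730420-6730669, minus strand: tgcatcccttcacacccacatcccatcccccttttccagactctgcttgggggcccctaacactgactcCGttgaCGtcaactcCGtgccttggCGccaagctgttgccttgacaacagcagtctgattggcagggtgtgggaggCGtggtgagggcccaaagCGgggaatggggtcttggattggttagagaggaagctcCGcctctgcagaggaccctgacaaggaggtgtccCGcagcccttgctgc

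CG occurred 19 times in the Plagl1 window, 14 times in the Mest window and 8 times in the Peg3 window. Over the 32851 windows of that length in the RefSeq table, 92.1% held at least 1 CG and the median count was 6. Of all windows 19.7% held 19 or more, 29.4% held 14 or more and 43.0% held 8 or more. The windows of the 15 member starts ranged from 0, at a Meg3 start, to 40, at a Grb10 start, with a median of 8. Of the 3 genes printed, Plagl1 was measured on both arrays, and Mest and Peg3 were above background on neither. The counts describe these letters only and say nothing of methylation in the cells.

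H19 and Igf2 are neighbours on distal chromosome 7 and share enhancers through a control region that is methylated on the paternal chromosome. H19 is a long non-coding RNA made from the maternal chromosome. Its single probe gave a processed signal of 26.3 on the choline-deficient and 8.59 on the choline-sufficient array, and both were called well above background. Before background subtraction the mean pixel values were 50.9 and 33.3, each over a local background of 25. After scaling, H19 stood 2.44-fold higher on the array without choline (log2 difference 1.29 ± 0.28). Probes printed 10 times on the arrays give a second view of the error of so dim a signal. For the 33 such probes whose dimmer signal lay between 4 and 20, the difference had an SD between spots of 0.26 (median) and at most 0.56. The H19 difference was larger than these spreads, which like the software's error hold no variation between cultures. It was 0.04 with normexp background correction, which adds 50 to every signal, more than either H19 signal.

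Igf2 encodes insulin-like growth factor 2, made mainly from the paternal chromosome. Its probe (NM_010514, mm9 chr7:149839661-149839720) gave signals of 9.74 on the choline-deficient and 5.47 on the choline-sufficient array, close to the lowest signals called well above background. The log2 difference was 0.50 ± 0.34, or 1.42-fold, under 2 times its error. With normexp correction it was -0.17, so its direction is not settled. Cdkn1c, in the neighbouring imprinted domain, encodes an inhibitor of cyclin-dependent kinases and is expressed from the maternal chromosome. Its probe (NM_009876, mm9 chr7:150644753-150644812) gave 401.4 and 409.0, near-equal signals far from background. After scaling the log2 difference was -0.36 ± 0.20, or 1.28-fold lower without choline, under 2 times its error. H19 and Cdkn1c lay on opposite sides of 0 under every alternative that gave them a value. However, H19 was at 0.04 with normexp correction and Cdkn1c at -0.09 with spike-in scaling. Median and spike-in scaling move both genes by the same amount, and all alternatives reuse the same arrays, so they are not independent checks of direction.

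Dlk1 and Meg3 form the imprinted domain of chromosome 12. Dlk1 encodes a membrane protein with EGF repeats that holds back differentiation of precursor cells, and it is expressed from the paternal chromosome. Of its 2 probes, that at mm9 chr12:110698721-110698781 was well above background on both arrays, with signals of 27.7 on the choline-deficient and 30.6 on the choline-sufficient array. The log2 difference was -0.47 ± 0.21, or 1.39-fold lower without choline, and it stayed between -0.59 and -0.20 under the alternatives that gave it a value. The other Dlk1 probe, at chr12:110698502-110698561, gave 0.882 and 0.906 and was above background on neither array, so Dlk1 rests on 1 probe. Meg3 is a long non-coding RNA of the maternal chromosome. The first of its probes printed above gave 2.37 on the choline-deficient array, not well above background, and 4.98 on the choline-sufficient array. Set against the lowest signal well above background on the choline-deficient array, its level on the latter array was 1.51-fold higher. That floor comes from other probes, so it is no strict bound for this one. Its mean pixel values were 28.5 and 30.4 over local backgrounds of 28 and 22. The software's errors were 41.5% and 22.0% of its signals, so the Meg3 difference is not settled. The other 2 Meg3 probes, at 1.48 and 1.62 and at 0.960 and 0.950, were above background on neither array.

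Plagl1 encodes a zinc finger transcription factor that restrains growth and binds enhancers of other imprinted genes, among them H19 and Igf2. It was the member with the most measured probes, 4 of 4, and these did not agree in sign. The probe at mm9 chr10:12850832-12850891 gave 1552 on the choline-deficient and 1711 on the choline-sufficient array, a difference of -0.47 ± 0.20. That at chr10:12851280-12851339 gave 1370 and 1451, a difference of -0.41 ± 0.20. The remaining pair lies further towards the start of that stretch. At chr10:12848421-12848480 the signals were 71.5 and 52.1, a difference of 0.13 ± 0.21, and at chr10:12848851-12848910 they were 41.1 and 32.4, a difference of 0.01 ± 0.21. The mean of the 4 probes was -0.19 ± 0.21 and the brightest probe alone was -0.47, while spike-in scaling gave 0.09 for the mean. Peg3, a large zinc finger protein of the paternal chromosome involved in cell death and metabolism, had 2 probes with signals between 1.04 and 2.38, above background on neither array.

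Ndn encodes necdin, a MAGE family protein that binds E2F factors and is lost in Prader-Willi syndrome. Its probe (NM_010882, mm9 chr7:69493847-69493906) gave 28.4 on the choline-deficient and 19.9 on the choline-sufficient array. After scaling the difference was 0.18 ± 0.22, smaller than its error, and it was -0.18 with normexp correction. Grb10 encodes an adaptor that inhibits signalling by the insulin and IGF1 receptors. Its single probe (NM_001370603, mm9 chr11:11833165-11833224) gave 2.71 and 2.28 and was above background on neither array. Mest encodes a protein of the alpha/beta hydrolase fold and has been used as a marker of fat cell growth. Its 3 probes were above background on neither array. The probe at mm9 chr6:30698279-30698338 was printed 10 times, with a median signal of 1.13 on the choline-deficient and 1.08 on the choline-sufficient array. A single spot of the 10 was above background, at 5.75 on the choline-sufficient array, and the software marked that spot as an outlier. The others, at chr6:30697385-30697444 and chr6:30692160-30692219, gave at most 4.15.

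Counted over the 6 measured members, H19 alone was at least 2-fold higher without choline (1 gene), 0 were 2-fold or more lower, and the median log2 difference was -0.002. Of all 19816 measured genes, 7.67% lay at least 2-fold up and 3.88% at least 2-fold down, 11.6% in all, with a median of -0.10. A count of 1 in 6 is too small to be read against these shares. By sign, 3 members were above 0 and 3 below, but Igf2 and Ndn turned below 0 with normexp correction and Plagl1 turned above 0 with spike-in scaling. At 1.5-fold the count was again 1 higher and 0 lower, against 14.8% and 14.1% of all genes, 28.9% in all. Of all genes at least 2-fold apart, 66.4% were higher with the scaling used, 53.7% with scaling to the array medians and 85.6% with spike-in scaling. Against the scaling used, these moved the median of all genes by -0.119 and 0.271, and normexp correction moved it by -0.10.

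**Figure D2:**
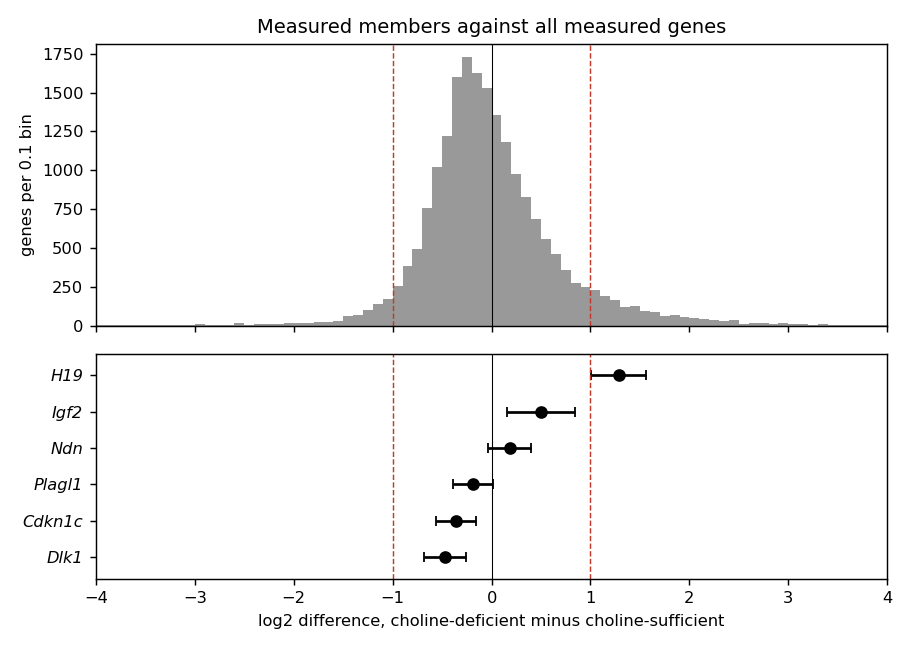
Top, number of genes by log2 difference (choline-deficient minus choline-sufficient, bins of 0.1) for the 19816 measured genes, a few of which lie beyond the axis. Bottom, the 6 measured members with the software's error as bars; dashed lines mark 2-fold, and H19 at 1.29 lies beyond it (0.04 with normexp correction), while Dlk1, at -0.47, lies lowest.

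**Figure D3:**
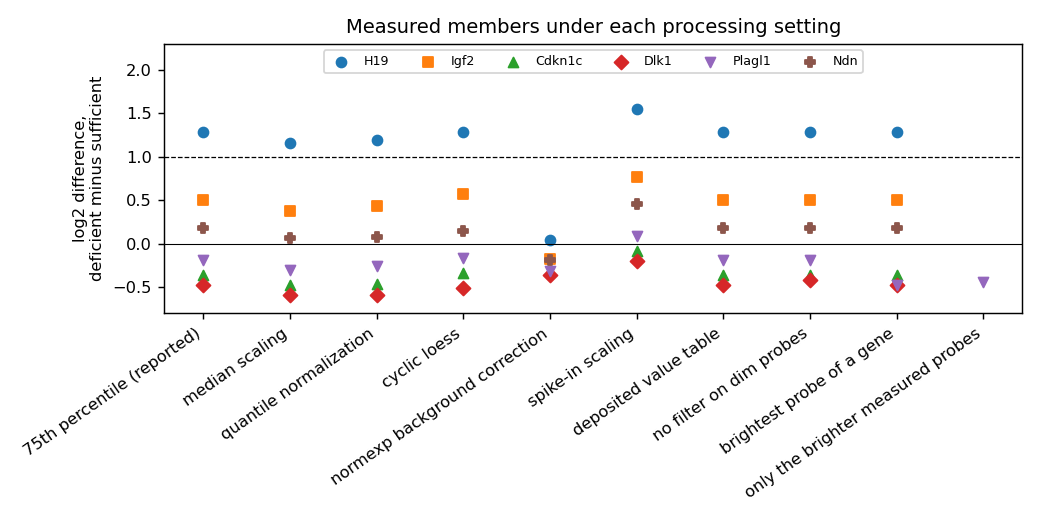
Log2 difference of each measured member (vertical axis) under the setting reported and 9 alternatives (horizontal axis), with 2-fold higher dashed. H19 stays between 1.17 and 1.56 except at 0.04 with normexp correction; Igf2 and Ndn fall below 0 there and Plagl1 rises to 0.09 with spike-in scaling.

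A wider list of 65 genes taken as imprinted, grouped by region and holding none of the 10 members, shows how the members' neighbours stood. Whether each listed gene is imprinted in these cells was not measured. Of the 65 genes 62 were found on the array and 52 were measured, with 10 above background on neither array. At least 2-fold higher were 5 (9.62%, beside 7.67% of all genes) and at least 2-fold lower 2 (3.85%, beside 3.88%), and the list's median was 0.001. These shares were close to those of all genes. The list's median was -0.22 with normexp correction and 0.27 with spike-in scaling. Around H19, Igf2 and Cdkn1c, 15 genes of the region were measured, members included. A gene that lay far apart there was Phlda2, a maternally expressed gene that restrains growth of the placenta. Its probe gave 6.23 on the choline-deficient and 52.9 on the choline-sufficient array, so it was 10.7-fold lower on the former, a difference of -3.42 ± 0.29. The Phlda2 difference was -1.14 with normexp correction, still over 2-fold. It rests on 1 probe, whose 6.23 lies close to 4.16, the lowest signal called well above background on the choline-deficient array. The size of the difference is therefore not settled.

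The other genes of that region differed less. Cd81, which encodes a tetraspanin, was at 0.80 ± 0.20, and Osbpl5, of a sterol-binding protein family, at 0.41 ± 0.20. Tspan32 was at -0.32 ± 0.22 over 2 measured probes of opposite sign, at -0.86 and 0.22. The non-coding antisense RNA Kcnq1ot1 was at -0.28 ± 0.21, Ascl2 at -0.25 ± 0.42, Tnfrsf23 at -0.21 ± 0.22 and Slc22a18 at -0.18 ± 0.22. Nap1l4, Ins2, Th and Tssc4 lay between -0.08 and 0.12. Kcnq1, the potassium channel gene of the domain, was above background on neither array. Phlda2 and Cdkn1c are both maternally expressed genes of the domain that holds Kcnq1ot1, and their differences were -3.42 and -0.36, the latter under 2 times its error. The other measured genes of the region lay on both sides of 0, so the pair does not describe the region.

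Neighbours of the other members lay within 2-fold, with 1 exception. In the Dlk1-Meg3 domain Dio3, the gene of a thyroid hormone deiodinase, was at 0.14 ± 0.38 and the non-coding RNA Mirg at 0.03 ± 0.23, and Rtl1 and Begain were above background on neither array. Beside Peg3, Zim1 was at 0.10 ± 0.27 and Zim3 at 0.01 ± 0.21, and Usp29 was above background on neither array. Copg2, next to Mest, was at -0.22 ± 0.20, Ddc, next to Grb10, at 0.27 ± 0.36, and Phactr2, next to Plagl1, at -0.71 ± 0.21. Klf14, of the Mest domain, was above background on neither array. In the domain of Ndn, Magel2 was at -0.41 ± 0.25 and Mkrn3 at -0.53 ± 0.21. Peg12 was at -0.42 ± 0.23 (probes at -0.76 and -0.07) and Ube3a at -0.13 ± 0.23 (probes at -0.45 and 0.19). The exception in this domain was Atp10a, of a lipid flippase, at 2.23-fold higher or 1.16 ± 0.20, which was 0.91 with normexp correction. Snrpn, which encodes a splicing protein, was above background with 0 of its 3 probes.

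Elsewhere in the wider list, 4 genes passed 2-fold upwards and 1 downwards. Peg10, a paternally expressed gene derived from a retrotransposon, had 2 probes with the same direction. The first gave 108.1 on the choline-deficient and 10.1 on the choline-sufficient array and the second 69.3 and 4.82, for a mean of 9.88-fold higher (3.30 ± 0.28, and 0.98 with normexp correction). Slc38a4, a paternally expressed amino acid transporter gene, gave 74.3 and 7.49 and was 7.89-fold higher (2.98 ± 0.29, and 0.68 with normexp correction). Dlx5, of a homeodomain factor, was 4.17-fold higher, at 2.06 ± 0.20. Airn, the non-coding RNA that crosses Igf2r, was 2.07-fold higher at 1.05 ± 0.20, with its 2 measured probes at 0.71 and 1.39. A further pair of its probes was above background on the choline-deficient array only. Airn was 0.93 with median scaling, 0.97 after quantile normalization and 0.88 with normexp correction. Commd1, of a protein of copper handling, was 2.62-fold lower, at -1.39 ± 0.20.

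**Figure D4:**
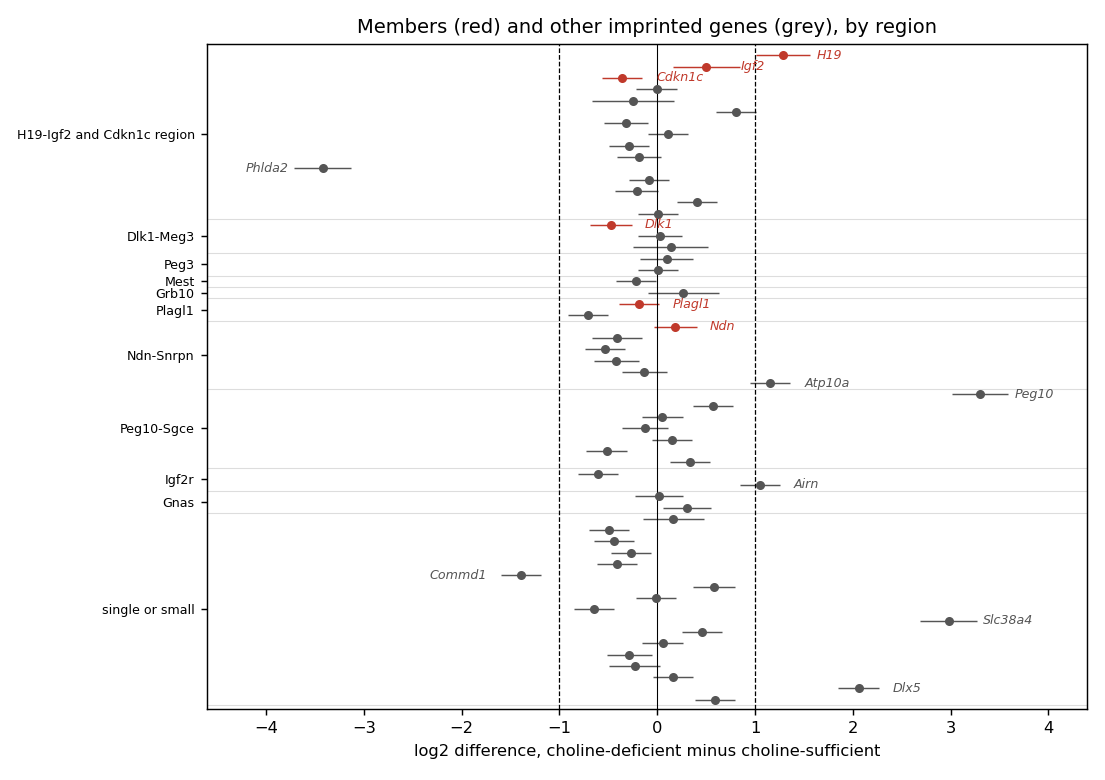
Log2 differences (horizontal axis, choline-deficient minus choline-sufficient) of the measured members (red) and of the 52 measured genes of the wider imprinted list (grey). Genes are grouped by region along the vertical axis, with the software's error as bars and 2-fold dashed. Phlda2 at -3.42, Peg10 at 3.30 and Slc38a4 at 2.98 lie far from 0; with normexp correction they are at -1.14, 0.98 and 0.68.

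The genes that keep imprints were examined as a second list, of 21 DNA methyltransferases, their partners, zinc finger readers and TET dioxygenases. Of these 19 were measured. Upwards 0 passed 2-fold (beside 7.67% of all genes) and downwards 2 (10.5%, beside 3.88%). In either direction the share was 10.5%, beside 11.6% of all genes. A count of 2 in 19 is too small to be read against these shares. The list's median was -0.07, and 0.21 with spike-in scaling. Dnmt1, the methyltransferase that copies methylation at replication, was at 0.09 ± 0.20, and Uhrf1, which brings it to the replicated strand, at 0.31 ± 0.20. Trim28, the corepressor held at imprinted control regions, was at 0.25 ± 0.20, and Zfp57, the zinc finger protein that recruits it, at -0.01 ± 0.21 over 2 probes of opposite sign. Ctcf, the insulator protein that binds the unmethylated H19 and Igf2 control region, was at -0.08 ± 0.20. The lower genes were Dnmt3l, the cofactor of new methylation in germ cells, at 2.73-fold lower (-1.45 ± 0.21), and Mbd2, a reader of methylated CpG, at 2.12-fold lower (-1.09 ± 0.20). The Dnmt3l levels were -4.75 without and -3.30 with choline, on the log2 scale against the 75th percentile. Mbd2 was -0.94 after cyclic loess and -0.81 with spike-in scaling, under 2-fold.

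A further list held 26 receptors, partners and targets of the members, all of them measured. Of these 5 (19.2%, beside 7.67% of all genes) passed 2-fold upwards and 1 (3.85%, beside 3.88%) downwards. The 5 include Igf1, whose probes disagreed. If a gene's dimmer probes are set aside, Igf1 stands at -0.12 and the upward count is 4. It was 3 with only the brighter measured probes. The list was chosen with earlier results of these data known, and 5 in 26 is a small count. It is therefore not read against the shares of all genes. The list's median was 0.13, and 0.40 with spike-in scaling. The receptors of the Igf2 and Grb10 pathway lay within 2-fold. Igf1r, the receptor through which IGF2 signals, was at 0.32 ± 0.20, Insr, the insulin receptor gene, at -0.47 ± 0.22, and Igf2r, the imprinted receptor gene that clears IGF2 and which also stands in the wider list, at -0.61 ± 0.20. Irs1, the docking protein of these receptors, was 2.77-fold higher (1.47 ± 0.21). The sister growth factor Igf1 had a mean of 2.36 ± 0.21, or 5.13-fold higher, over 5 probes that disagreed, from -0.12 to 4.13. Its brightest probe, at 546.0 on the choline-deficient and 471.6 on the choline-sufficient array, was the one at -0.12, so no single value describes Igf1. Igf2bp3, which binds Igf2 mRNA, was 2.39-fold lower (-1.25 ± 0.23), but -0.55 with normexp correction and -0.98 with spike-in scaling.

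Of the cell cycle partners of Cdkn1c, the cyclin gene Ccnd1 was 3.59-fold higher (1.85 ± 0.20), and the other 6 lay within 2-fold on both sides of 0. They ranged from Cdk4, of a cyclin-dependent kinase, at -0.47 ± 0.20 to Cdkn1a, of the same inhibitor family as Cdkn1c, at 0.38 ± 0.25 over 3 probes between -0.47 and 0.97. Notch3, a receptor of the Notch family that Dlk1 can oppose, was 4.70-fold higher (2.23 ± 0.20), and the Notch target Hes1 2.64-fold higher (1.40 ± 0.20). The other Notch receptor genes, Notch1, Notch2 and Notch4, were at 0.24 ± 0.20, 0.30 ± 0.21 and 0.54 ± 0.21.

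**Figure D5:**
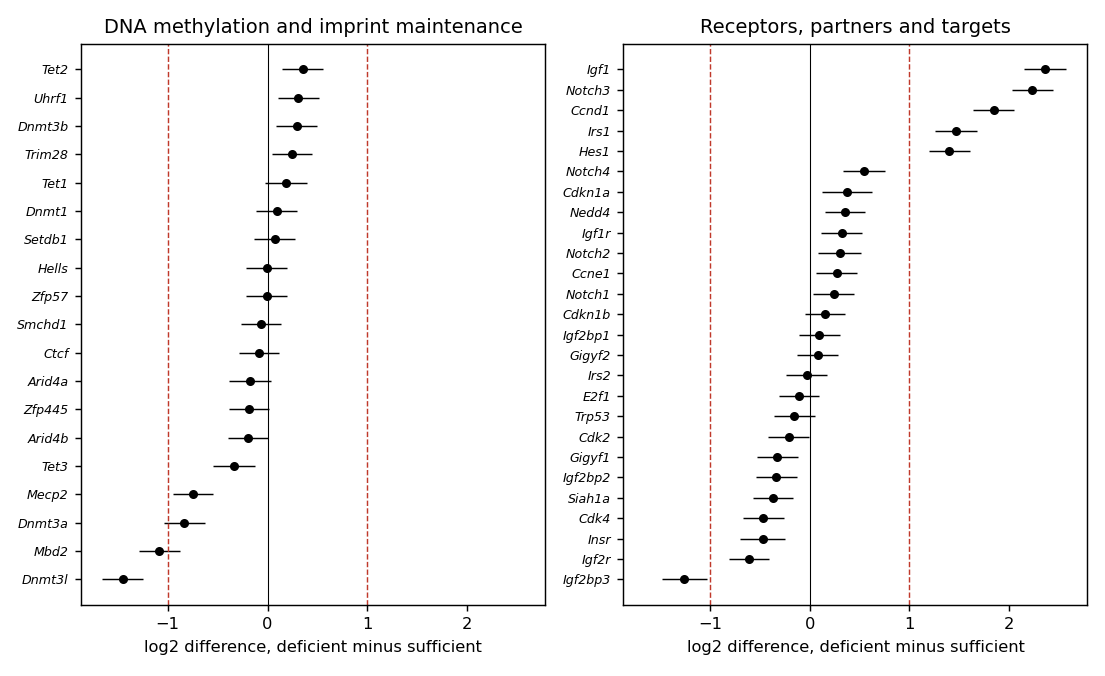
Log2 differences (horizontal axis, choline-deficient minus choline-sufficient) of the 19 measured genes of DNA methylation and imprint maintenance (left) and of the 26 receptors, partners and targets (right), with the software's error as bars and 2-fold dashed. On the left 2 genes pass the lower line and 0 the upper; on the right 5 genes, led by Igf1 (-0.12 by its brightest probe), pass the upper line and Igf2bp3 the lower.

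The labelled cell type was checked against its markers, with levels summed in multiples of each array's 75th percentile. Of 10 cone markers 7 were measured, with a summed level of 1.05 on the choline-deficient and 0.984 on the choline-sufficient array, and the cone opsin gene Opn1sw was above background on neither array. These sums rest largely on Rxrg (-0.19 ± 0.20), while 5 of the 7 were higher and 2 lower without choline, with a median of 0.56. Thrb was 2.26-fold higher, but its log2 difference was 0.145 with normexp correction. Outside these 7, 1 cone marker was above background on the choline-deficient array only and 1 on the choline-sufficient array only. Of 8 rod or shared photoreceptor markers 2 were measured, at 1.63 and 1.98, sums that rest almost wholly on Rom1. Nrl, Crx, Pde6b and Rcvrn were above background on neither array. Of 6 neuron markers 6 were measured, at 2.71 and 1.75, with 3 higher, 3 lower and a median of -0.02; Tubb3 (0.77) and Snap25 (0.58) make up most of the sums, and Elavl3 was 2.29-fold lower. Of 6 Muller glia markers 4 were measured, at 2.59 and 1.22, with 3 higher and 1 lower. Fibroblast markers differed most. Of 8 written, 7 were measured, all between 0.95 and 3.76 higher on the log2 scale on the choline-deficient array, and Lum was above background on neither array. Across the alternatives Thy1, which is also in the neuron list, went as low as 0.06 and Fap as low as 0.19, and the collagen genes Col1a1, Col1a2 and Col3a1 stayed at least 2-fold higher. The summed level of the 7 measured fibroblast markers was 78.0 on the choline-deficient and 9.53 on the choline-sufficient array, and Col1a2 makes up most of both sums. The part of these markers in the differences of H19 and of the imprinted genes named above was not tested.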

How the data were processed

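RNA of each condition was read on 1 single-colour array; the submitters' processing notes name Agilent Feature Extraction 12.1.1.1. The deposited intensity per spot had its background subtracted and a spatial trend removed, and arrays were not normalized to each other, per the file headers. The deposited value table holds a ratio, each processed signal over the array's 75th percentile (1609 without and 1280 with choline), by comparison with the scanner values. Its medians were 0.0358 and 0.0337. It is linear, uncentred and runs in the same direction, and the authors' own account of it was not used here.

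Levels are log2 signals less the log2 75th percentile, without control spots and outlier spots (92 and 86). Spots were averaged per probe, and a gene was the mean of its measured probes. A probe was above background where over 0.5 of its spots were. Well above background were 70.7% and 68.5% of the 43020 spots, and 0 were saturated. Precision is limited by the number of arrays. Of 112 list genes 109 were matched by name, 1 of them by a RefSeq synonym (GRCm38.p6). Exon and UTR positions on mm9 were not used here.

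The members and lists were chosen with earlier results of these data known. Named genes are all members, all list genes of their regions and other genes of the wider imprinted list at least 2-fold apart. Also named are genes of the remaining lists at least 2-fold apart and 8 fixed ones. Kcnq1 and other genes above background on neither array are named under that rule, while Cdk4, Cdkn1a, Notch1, Notch2, Notch4 and the marker genes were named after their values were seen. No gene was sought for a like pattern, since 2 arrays give 1 difference. Alternatives were median, quantile, cyclic loess and spike-in scaling (5 probes), normexp with an offset of 50 (limma 3.58.1 in R 4.3.3), the deposited table, 2 other filters, the brightest probe and 1.5-fold. Scripts (Python 3.11.15, pandas 2.3.3, numpy 2.4.6) were tested on simulated data. A probe sequence and the values of 1 marker gene are not reported here.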

Additional observations from a re-analysis of the deposited data

How the results depend on the processing

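With 1 array per condition no replicate could be left out, and no paired analysis was possible because no group had a second array. H19 was at least 2-fold higher under 7 of the 8 alternatives that gave it a value, from 1.17 to 1.56, and at 0.04 with normexp correction, whose offset exceeds both H19 signals. The count of members at least 2-fold higher was therefore 0 with normexp correction, and 0 with only the brighter probes, where Plagl1 alone was left. The members' median was -0.25 with normexp correction, 0.27 with spike-in scaling, -0.27 with no filter on dim probes, over all 10 genes, and -0.44 with only the brighter probes. The cause of the other changes below was not tested, except that stricter filters test fewer genes and 1.5-fold counts more.

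With normexp correction 742 genes were at least 2-fold higher and 421 lower, and 1 of the wider imprinted list was higher with a list median of -0.22; 0 of the partner list were lower. With spike-in scaling 2292 genes were higher, 385 were lower and the median over all genes was 0.18, and medians were 0.27 for the wider imprinted list, 0.21 for the maintenance list and 0.40 for the partner list; 1 maintenance gene and 0 partner genes were lower. Cyclic loess left 1 maintenance gene lower. With no filter 1741 genes were lower, and 8 of the wider imprinted list were higher. With only the brighter probes 625 genes were higher and 349 lower, 1 and 1 in the wider imprinted list, 3 and 0 in the partner list, and 1 maintenance gene was lower. At 1.5-fold 2932 genes were higher and 2801 lower, and 5, 4 and 2 genes were lower in the wider imprinted, maintenance and partner lists. The lowest signals called well above background were 4.16 without and 4.26 with choline, but these are no fixed limit. An Airn probe at 5.43 on the choline-sufficient array was not called. The probes of Peg3, Mest and Grb10 were called on neither array, so nothing can be said of a difference in these genes.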
